A study of Mus musculus with 23 samples.

Results

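Resident immune and plasma cell genes are described here in the developing and adult glands around the mouse eye. They are 37 genes in 4 subgroups: 17 macrophage genes, 5 genes of antigen presentation, 11 lymphocyte and plasma cell genes and 4 mast cell genes. The genes were chosen by name, with earlier results of these data known. Each was looked up on the array through the RefSeq accession of its probes. Where a gene had several probes, the one with the highest mean level was used. A probe was found for 36 of the 37 genes, among 20887 gene symbols. Of these, 30 passed a filter that kept a gene only if all arrays of some group showed it well above background, as did 16324 genes in all. A gene that passed only through the group in which it is bright had to differ between groups. Counts of genes called are therefore set beside those over all genes tested. This was not done for most fits that left out an array or changed a setting. Ciita passed only through eyelid epithelium and adult lacrimal gland, and Itgax only through the adult lacrimal and harderian glands. Fcmr passed only through eyelid mesenchyme, harderian epithelium and adult harderian gland. H2-Aa passed through no epithelium, and Jchain through neither an epithelium nor eyelid mesenchyme. Calls of these genes with such a group on the higher side are not independent of the filter.

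One-colour Agilent arrays measured total RNA of mice whose strain is labelled B6/CL. Whole glands came from adults of 7 weeks: the lacrimal gland (LG, 2 arrays), which makes the watery part of the tear film, and the harderian gland (HG, 3 arrays), a lipid-secreting gland behind the eye. Tissue of embryonic day 16.5 had been separated into mesenchyme (LG, HG and eyelid, 3 arrays each) and epithelium (LG, HG and eyelid, 3 arrays each). No allele or agent is named for any of the 8 groups. The labels do not tell whether arrays of a group came from separate animals, so p-values reflect the spread between arrays, which may be technical. The adult glands were not separated, so an adult gland set against an embryonic compartment differs from it in age and in cell makeup, and these cannot be told apart.

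Tissue macrophages settle in embryonic connective tissue and carry the colony-stimulating factor receptor Csf1r, the signalling adaptors Tyrobp and Fcer1g, and the complement subunits C1qa, C1qb and C1qc. Professional antigen-presenting cells load peptides on class II molecules (H2-Aa, H2-Ab1, H2-Eb1) with the invariant chain Cd74, under the transactivator Ciita. Plasma cells of exocrine glands secrete dimeric immunoglobulin A, whose joining chain is encoded by Jchain. Connective tissue mast cells store the proteases Cpa3, Cma1 and Mcpt4 in their granules.

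Levels are log2 signal minus the 75th percentile of log2 signal on the same array, and they are compared between groups within 1 gene only. Differences are log2 values from a limma fit over all 23 arrays, given with the standard error (SE) of the fit. A gene was called at an adjusted p under 0.05 (Benjamini-Hochberg over 16324 genes). The arrays lay on 3 slides, each with 1 array of every embryonic group and 1 of adult HG, and the 2 adult LG arrays lay on slides 2 and 3. In bulk tissue, fewer cells of a type and less RNA per cell cannot be told apart.

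The 75th percentile of intensity was 139 to 857 per array, and 42.4% to 64.6% of spots were well above background. The 5 adult arrays stood apart in spread. Over the 30 genes the median SD was 0.57 in adult LG and 1.19 in adult HG, and between 0.17 and 0.43 in the embryonic groups, while over all genes it was 0.34, 0.39 and 0.16 to 0.21. Adult HG array 1 had the highest level of the 3 adult HG arrays for 29 of the 30 genes, and array 3 the lowest for 27. Markers of other tissues moved with this. The summed level of 7 skeletal muscle genes (signal over the 75th percentile) was 50.7, 4.84 and 1.37 on adult HG arrays 1, 2 and 3, and that of 7 adipocyte genes was 27.8, 7.62 and 4.71. Adult LG array 1 was above array 2 for 28 of the 30 genes, and 5 salivary gland genes summed to 2350 on it, against 0.709 on adult LG array 2. The part of these tissues in the adult results was not tested. Results that rest on adult arrays are given with and without adult LG array 1 and adult HG array 1 where that changes a call.

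**Figure D1:**
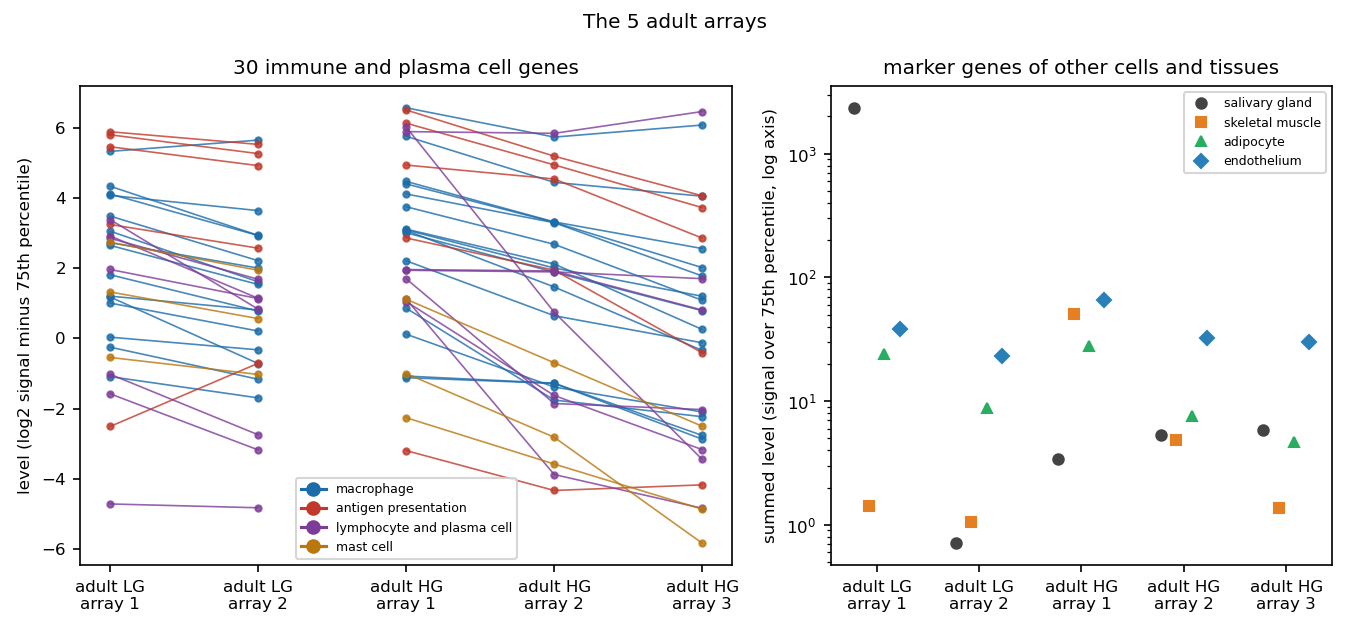
Left, level of each of the 30 genes (log2, vertical axis) on the 2 adult LG and 3 adult HG arrays; lines join the same gene and imply no order of the arrays. Right, summed level of marker genes of other tissues on the same arrays (log axis). Adult HG array 1 is highest of its group for 29 of the 30 genes and has the highest muscle sum (50.7), and adult LG array 1 has a salivary sum of 2350.

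The first comparison asked in which embryonic compartment these genes were found. In the mean over LG, HG and eyelid, 24 of the 30 genes were higher in mesenchyme than in epithelium and 0 were lower, with a median difference of 2.99. Over all genes tested 70.6% were called, 32% higher and 38.7% lower, with a median of -0.09. All 15 macrophage genes tested were higher, by a median of 3.42, as were all 3 mast cell genes tested, 4 of the 5 genes of antigen presentation and 2 of the 7 lymphocyte and plasma cell genes tested. Each of the 24 had the same sign on each of the 3 slides.

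Mrc1, the mannose receptor of tissue macrophages, had levels of 2.35, 2.73 and 3.07 (lowest, median and highest) on the 9 mesenchyme arrays, against -2.68, -1.76 and -0.39 on the 9 epithelium arrays. The compartments did not overlap, and the difference was 4.43 ± 0.24 (SE), or 21.5-fold (adjusted p = 1.02e-11). Tyrobp, an adaptor of activating receptors on myeloid cells, had levels of 3.59, 4.1 and 4.91 in mesenchyme, against -0.56, -0.16 and 0.94 in epithelium, a difference of 4.16 ± 0.26. Fcer1g, the common gamma chain of Fc receptors, had levels of 3.94, 4.18 and 4.93 in mesenchyme, against -0.02, 0.39 and 1.09 in epithelium, a difference of 3.88 ± 0.23. Lyz2, the lysozyme of myeloid cells, had levels of 0.19, 0.87 and 1.78 in mesenchyme, against -4.71, -3.04 and -1.81 in epithelium, a difference of 4.19 ± 0.36. For these 4 genes every mesenchyme array was above every epithelium array. Here and below, overlap was not counted over all genes, so its absence is not shown to be particular to this set.

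The receptors of the lineage followed. Csf1r, the receptor for macrophage survival factors, had levels of 4.42, 4.75 and 5.16 in mesenchyme, against 1.1, 2.0 and 2.68 in epithelium. Adgre1, an adhesion receptor widely used to mark mouse macrophages, had levels of 0.56, 0.77 and 1.33 in mesenchyme, against -3.14, -2.87 and -1.6 in epithelium. Cx3cr1, the fractalkine receptor, had levels of 2.26, 2.87 and 2.99 in mesenchyme, against -1.24, -0.82 and 0.70 in epithelium. None of the 3 overlapped between compartments, and the differences were 2.79 ± 0.18, 3.51 ± 0.23 and 3.31 ± 0.28. Csf1r has 2 dimmer probes, at which the difference was 2.56 and 0.37.

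Ptprc, the common antigen of nucleated blood cells, differed by 2.6 ± 0.20. Laptm5, a lysosomal protein of blood cells, differed by 3.54 ± 0.22, and Aif1, a calcium-binding protein of macrophages, by 3.21 ± 0.23. Of the complement subunits, C1qa differed by 3.42 ± 0.25, C1qb by 3.01 ± 0.29 and C1qc by 3.59 ± 0.21. None of these 6 genes overlapped between the compartments.

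The integrin chains were exceptions. Itgam, an alpha chain of myeloid integrins, had levels of 3.68, 4.29 and 5.13 in mesenchyme, against 3.57, 4.0 and 4.5 in epithelium, a difference of 0.44 ± 0.16 (adjusted p = 0.0211) with overlapping compartments. At its 2 other probes the difference was -0.45 and 0.32, so its direction depends on the probe. Itgax, an integrin chain of dendritic cells and some macrophages, was well above background on no epithelium array and on 4 of the 9 mesenchyme arrays. It was called higher in LG mesenchyme (adjusted p = 0.00306), where 1 of 3 arrays was well above background, so no fold is given. In HG mesenchyme, with 2 of 3 arrays well above background, it was also called higher (adjusted p = 0.000767), again without a fold. A fold given below as at least a value sets the bright group against the lowest signal that counted as well above background. Of the 2 macrophage genes that were not tested, the scavenger receptor Cd163 was well above background on 2 adult HG arrays and no other array, and the lysosomal protein Cd68 was not matched to a probe and is not analysed here.

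The macrophage pattern held in each tissue. Of the 15 genes, 15 were higher in mesenchyme in LG, 14 in HG and 14 in eyelid, and the gene not called in HG and eyelid was Itgam. Over the whole set 22 of the 30 genes were higher and 2 lower in LG, where 58.6% of all genes tested were called (26.5% higher, 32.1% lower). In HG 23 were higher and 1 lower, with 57.9% of all genes called (28.1% higher, 29.8% lower), and in eyelid 23 were higher and 1 lower, with 51.2% called (25.5% higher, 25.7% lower). Mrc1 differed by 4.76 ± 0.42 in LG, 3.65 ± 0.42 in HG and 4.87 ± 0.42 in eyelid. An F test for a compartment difference that depends on the tissue called 0 of the 15 macrophage genes and 5 of the 30, against 42.3% of all genes tested. In a fit of the 18 embryonic arrays alone it called 13 of the 30, and 53.4% of all genes tested.

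Markers of other connective tissue cells moved the same way. Of 10 endothelial genes 9 were higher in mesenchyme, with summed levels of 64.2 to 122 on mesenchyme arrays, against 14.7 to 32.3 on epithelium arrays. All 8 erythroid genes tested were higher, with sums of 704 to 1418 on mesenchyme arrays, against 37.6 to 547 on epithelium arrays. The 12 mesenchyme markers summed to 1520 to 2229 on mesenchyme arrays, against 109 to 262 on epithelium arrays, and at least 11 of them were well above background on all arrays of each epithelium. The part of these cells in the immune signal was not tested.

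**Figure D2:**
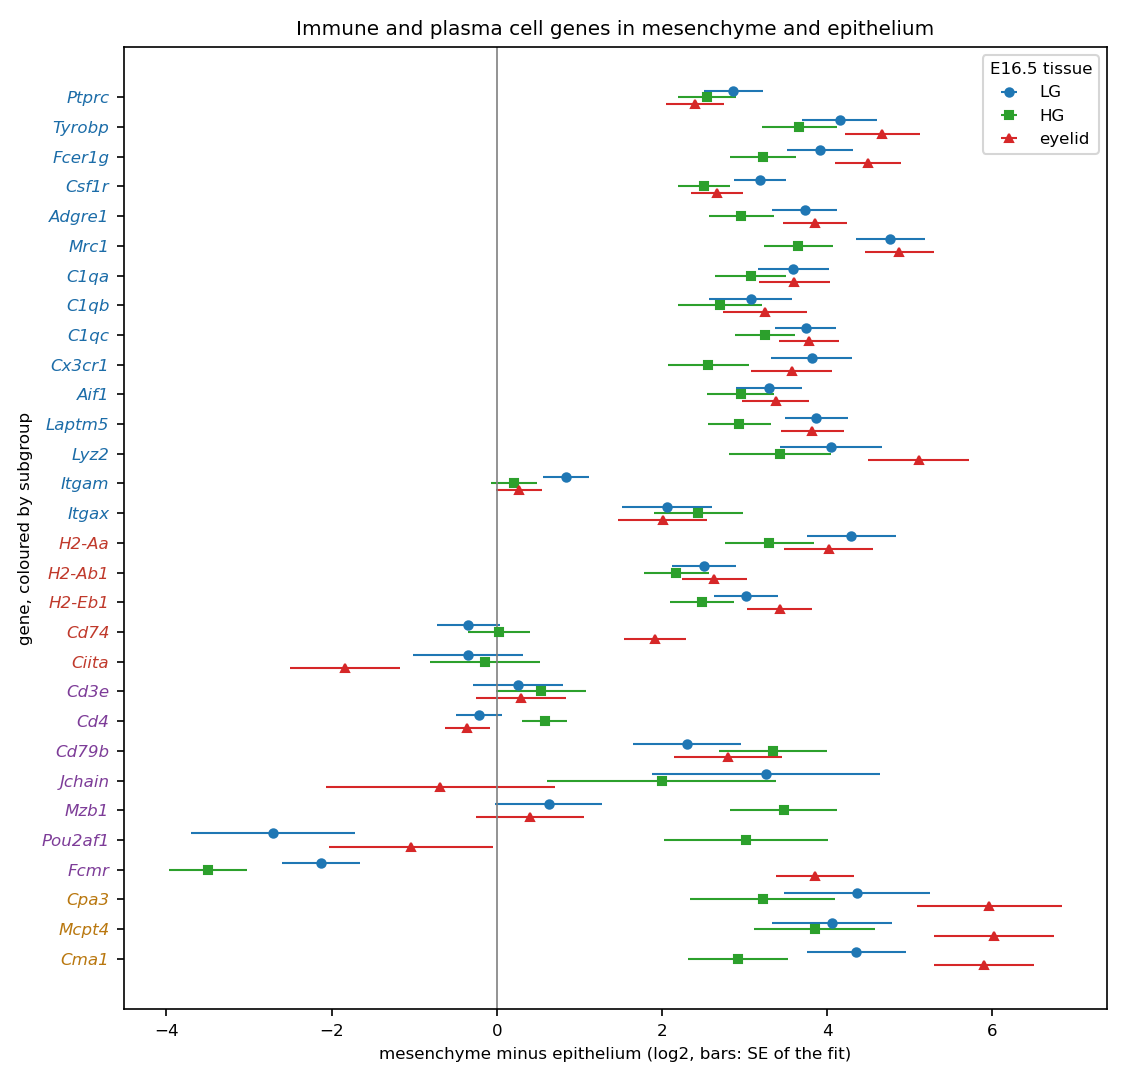
Difference in level between mesenchyme and epithelium (log2, horizontal axis) of the 30 genes in embryonic LG, HG and eyelid; bars are the SE of the fit and gene names are coloured by subgroup. The macrophage genes lie right of 0 in all 3 tissues, while Fcmr, Pou2af1, Cd74, Cd4 and Jchain lie on different sides of 0 in different tissues.

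Class II genes were also higher in embryonic mesenchyme. Cd74 was called higher there in eyelid only, and Ciita was higher there in no tissue. H2-Eb1, a class II beta chain, had levels of 0.86, 1.4 and 1.44 in mesenchyme, against -2.22, -1.73 and -1.0 in epithelium, a difference of 2.98 ± 0.22 (adjusted p = 9.26e-10). H2-Ab1, another beta chain, had levels of 0.61, 1.51 and 2.15 in mesenchyme, against -1.79, -1.03 and -0.14 in epithelium, a difference of 2.44 ± 0.23, and its other probe gave 2.49. Neither gene overlapped between the compartments. H2-Aa, the alpha chain that pairs with H2-Ab1, was well above background on all 9 mesenchyme arrays and on no epithelium array. It was at least 5.85-fold higher in LG mesenchyme (adjusted p = 1.7e-06), at least 3.21-fold higher in HG mesenchyme (adjusted p = 3.79e-05) and at least 6.71-fold higher in eyelid mesenchyme (adjusted p = 4.61e-06).

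Cd74, which occupies the peptide groove until the class II molecule reaches the endosome, was called between the compartments in eyelid and not in LG or HG. In eyelid its levels were 0.06, 0.58 and 0.71 in mesenchyme, against -1.87, -1.34 and -1.19 in epithelium, with no overlap. In LG they were -0.63, 0.09 and -0.24 in mesenchyme, against -0.18, 0.07 and 0.36 in epithelium, and in HG -0.70, -0.43 and -0.41 in mesenchyme, against -0.56, -0.39 and -0.70 in epithelium, both with overlap. The differences were 1.92 ± 0.38 in eyelid, -0.34 ± 0.38 in LG and 0.03 ± 0.38 in HG, and the F test called the dependence on tissue (adjusted p = 0.00426). Ciita was dim, being well above background on 5 of the 9 mesenchyme and 7 of the 9 epithelium arrays. Its levels in eyelid were -4.07, -5.15 and -4.34 in mesenchyme, against -4.34, -1.47 and -2.24 in epithelium, which overlapped, and the difference of -1.84 ± 0.66 was called (adjusted p = 0.0276), as it was in 20 of the 23 fits that left out 1. Within the 3 slides it was 0.27, -3.68 and -2.1.

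Class II promoters share short elements, the X box and the Y box, bound by the complex that recruits Ciita. The 250 bases before the transcription start are shown for H2-Aa and H2-Eb1, in which a search found these letters, because both genes changed between compartments and between mesenchyme and adult gland. The sequences are RefSeq's, build GRCm38.p6: H2-Aa lies on the minus strand at chr17:34287824-34288073 and H2-Eb1 on the plus strand at chr17:34305617-34305866, and both are printed in the direction of the gene. Capitals mark the Y box letters CTGATTGG and the X box letters TAGCAAC, searched on both strands; the marked stretches do not overlap.
H2-Aa: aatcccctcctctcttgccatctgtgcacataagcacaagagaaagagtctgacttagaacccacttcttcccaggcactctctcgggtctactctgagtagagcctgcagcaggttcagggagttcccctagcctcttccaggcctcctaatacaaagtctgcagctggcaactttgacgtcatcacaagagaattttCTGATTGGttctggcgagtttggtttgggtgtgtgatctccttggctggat
H2-Eb1: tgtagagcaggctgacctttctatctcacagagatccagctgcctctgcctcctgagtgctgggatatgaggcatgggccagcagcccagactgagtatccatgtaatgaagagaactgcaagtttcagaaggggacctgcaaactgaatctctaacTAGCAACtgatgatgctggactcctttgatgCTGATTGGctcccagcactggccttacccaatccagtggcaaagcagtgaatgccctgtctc
The Y box letters began 51 bases before the start of H2-Aa and 62 before that of H2-Eb1, and the X box letters 93 before that of H2-Eb1. The Y box letters stood in 4.07% and the X box letters in 3.3% of the 27025 promoter windows searched. Of the 26 genes of the set with a window, H2-Aa and H2-Eb1 held the Y box letters, and Cd68 and H2-Eb1 the X box letters.

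The promoters of C1qb and C1qc, complement genes that moved with the macrophage set, are shown in the same way. C1qb lies at chr4:136886201-136886450 and C1qc at chr4:136892915-136893164, both on the minus strand. Capitals mark the letters AGGAAGT on either strand, a form of the core bound by Ets factors, to which the myeloid factor PU.1 belongs.
C1qb: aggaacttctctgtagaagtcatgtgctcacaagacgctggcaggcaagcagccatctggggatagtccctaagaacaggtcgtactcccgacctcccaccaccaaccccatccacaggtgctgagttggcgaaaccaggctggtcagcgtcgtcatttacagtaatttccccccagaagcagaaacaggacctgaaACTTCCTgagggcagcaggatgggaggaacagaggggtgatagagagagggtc
C1qc: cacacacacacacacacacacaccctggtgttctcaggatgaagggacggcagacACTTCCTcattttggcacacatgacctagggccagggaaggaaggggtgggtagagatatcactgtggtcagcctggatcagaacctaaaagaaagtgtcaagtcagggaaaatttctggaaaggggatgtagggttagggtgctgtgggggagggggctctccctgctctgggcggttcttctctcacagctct
These letters stood in 7.8% of the 27025 windows and in 7 of the 26 of the set: C1qb, C1qc, Cd3e, Cd79a, Lyz2, Mrc1 and Ptprc. The octamer letters ATTTGCAT, bound by the factors that Pou2af1 assists, stood in 1.61% of all windows and in 0 of the 26.

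The lymphocyte and plasma cell genes did not move as a group in the embryo. Of the 11, 4 did not pass the filter: Cd3g, a T cell receptor chain, Cd8a, the coreceptor of cytotoxic T cells, Cd79a, a B cell receptor chain, and Ms4a1, a B cell surface antigen. Cd8a was well above background on 0 of the 23 arrays. Cd3e, a chain of the T cell receptor complex, was well above background on all 23 arrays, with levels of 0.05, 1.24 and 1.61 in mesenchyme, against -0.40, 0.94 and 1.63 in epithelium. Cd4, the coreceptor of helper T cells, had levels of 0.67, 1.42 and 1.61 in mesenchyme, against 0.29, 1.3 and 1.95 in epithelium, and its other probe did not pass the filter. Both overlapped between the compartments, and neither difference was called (0.36 ± 0.32 and 0.00 ± 0.16).

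Cd79b, the partner of Cd79a in the B cell receptor, was higher in mesenchyme in all 3 tissues, by 2.82 ± 0.38 in the mean (adjusted p = 2.29e-06). Its levels were -0.27, -0.04 and -0.33 in LG mesenchyme, 0.96, 1.23 and 1.18 in HG mesenchyme and 0.37, 0.59 and 0.38 in eyelid mesenchyme, against -2.69, -2.5 and -1.93 (lowest, median and highest) over the epithelium arrays. No mesenchyme array overlapped the epithelia. Cd79a itself was well above background on 1 of the 9 mesenchyme and 3 of the 9 epithelium arrays.

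Mzb1, an endoplasmic reticulum chaperone of B and plasma cells, was high in HG mesenchyme. Its levels there were -0.95, -0.68 and -0.71, against -4.56, -3.92 and -4.27 in HG epithelium, a difference of 3.47 ± 0.65 (adjusted p = 0.000167), and it was not called in LG (0.63 ± 0.65) or eyelid (0.40 ± 0.65). Pou2af1, a coactivator of octamer factors in B cells, went opposite ways in the glands. In HG its levels were -1.52, -1.37 and -1.41 in mesenchyme, against -5.15, -3.77 and -4.43 in epithelium, and in LG -4.53, -4.13 and -4.75 in mesenchyme, against -1.2, -1.79 and -2.3 in epithelium. The groups did not overlap in either gland. The differences were 3.02 ± 0.99 in HG (adjusted p = 0.014) and -2.71 ± 0.99 in LG (adjusted p = 0.0255). Pou2af1 was well above background on 1 of 3 HG epithelium and 2 of 3 LG mesenchyme arrays. In eyelid mesenchyme it was so on 1 of 3 arrays and in adult HG on 2 of 3. Its differences from these groups rest partly on values not well above background. It passed the filter only through HG mesenchyme, LG and eyelid epithelium and adult LG. The Pou2af1 calls were kept in 22 of 23 fits that left out 1 array in HG and in 19 in LG. The F test called both Mzb1 (adjusted p = 0.0185) and Pou2af1 (adjusted p = 0.00778).

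Fcmr, a receptor for immunoglobulin M, also changed direction between tissues. In eyelid its levels were -2.41, -1.69 and -1.52 in mesenchyme, against -6.8, -5.37 and -5.0 in epithelium, where no array was well above background. In HG they were -6.66, -5.83 and -6.53 in mesenchyme, where no array was well above background, against -2.14, -3.15 and -3.24 in epithelium. Fcmr was at least 6.74-fold higher in eyelid mesenchyme than in eyelid epithelium (adjusted p = 1.66e-06) and at least 3.64-fold lower in HG mesenchyme than in HG epithelium (adjusted p = 4.51e-06). In LG its levels were -6.96, -7.43 and -6.93 in mesenchyme, where no array was well above background, against -6.12, -4.56 and -4.26 in epithelium. It was called lower in LG mesenchyme (adjusted p = 0.000824), but 2 of 3 LG epithelium arrays were well above background, so no fold is given. The F test for dependence on tissue had an adjusted p of 1.82e-07.

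Jchain had levels of -1.97, -1.96 and -1.74 in LG mesenchyme, -4.38, -4.01 and -3.92 in HG mesenchyme and -6.96, -6.48 and -6.05 in eyelid mesenchyme, where no array was well above background. In LG epithelium, with 1 of 3 arrays well above background, they were -5.66, -4.84 and -4.95. The LG compartments did not overlap, but the difference of 3.26 ± 1.38 had an adjusted p of 0.0512. In the fit of the embryonic arrays alone, which leaves out the spread of the adult arrays, it had an adjusted p of 8.72e-07.

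The mast cell proteases differed between the embryonic mesenchymes. Cpa3, mast cell carboxypeptidase, had levels of 6.26, 5.92 and 5.89 in LG, 3.7, 3.96 and 3.82 in HG and 7.11, 6.64 and 7.0 in eyelid mesenchyme. Cma1, mast cell chymase, had levels of 4.74, 4.34 and 4.38 in LG, 2.21, 2.28 and 2.23 in HG and 5.57, 5.21 and 5.16 in eyelid mesenchyme. Mcpt4, another chymase of connective tissue mast cells, had levels of 2.58, 2.14 and 2.17 in LG, 2.26, 2.74 and 2.45 in HG and 6.34, 5.87 and 5.79 in eyelid mesenchyme. The eyelid arrays were highest for all 3 genes, HG was lowest for Cpa3 and Cma1, and LG and HG overlapped for Mcpt4. Parts of this order were not called in the limma fit over all arrays. Cpa3 was not called between LG and HG (adjusted p = 0.114) or between LG and eyelid (adjusted p = 0.491). Cma1 was not called between LG and eyelid (adjusted p = 0.328).

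Against epithelium, the 3 proteases were higher in mesenchyme in every tissue, with mean differences of 4.52 ± 0.51 for Cpa3, 4.64 ± 0.42 for Mcpt4 and 4.39 ± 0.35 for Cma1. Mcpt4 was 25.0-fold higher in the mean. The difference of Cma1 was 4.36 ± 0.60 in LG, 2.92 ± 0.60 in HG and 5.9 ± 0.60 in eyelid, and the F test called its dependence on tissue (adjusted p = 0.026), but not that of Cpa3 (adjusted p = 0.198) or Mcpt4 (adjusted p = 0.172). Ms4a2, a chain of the high-affinity receptor for immunoglobulin E, did not pass the filter and was well above background on 1 LG and 1 eyelid mesenchyme array.

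Between mesenchymes of different tissues, 3 of the 30 genes were called for LG against HG, 1 higher and 2 lower (14.3% of all genes tested, 6.46% higher and 7.85% lower). For LG against eyelid 1 was higher and 2 were lower (31.2% of all genes, 15.5% higher and 15.7% lower), and for HG against eyelid 2 were higher and 5 lower (22.4%, 11.1% higher and 11.3% lower). None was a macrophage gene, but these counts rest on the spread of the adult arrays in the same fit. With the 18 embryonic arrays alone 9, 9 and 12 of the 30 genes were called, and 23%, 41.6% and 31.9% of all genes tested. In that fit C1qa and C1qc were lower in LG than in HG mesenchyme (-0.69 and -0.66), and Tyrobp, Fcer1g and Aif1 were lower in LG than in eyelid mesenchyme (-1.04, -0.73 and -0.49).

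In the fit over all arrays, LG against HG mesenchyme gave Cma1, higher in LG by 2.25 ± 0.60 (adjusted p = 0.0156), and Mzb1 and Pou2af1, lower in LG (-3.15 ± 0.65 and -3.04 ± 0.99). Leaving out 1 array at a time, Mzb1 was called in 23 of 23 fits, Cma1 in 22 and Pou2af1 in 4. LG against eyelid mesenchyme gave Jchain, at least 7.05-fold higher in LG (adjusted p = 0.0163), Fcmr, at least 9.15-fold lower in LG (adjusted p = 1.38e-07), and Mcpt4, lower in LG (-3.7 ± 0.73). HG against eyelid mesenchyme gave Mzb1 and Pou2af1, higher in HG by 2.43 ± 0.65 and 3.48 ± 0.99, and H2-Ab1, Cpa3, Mcpt4 and Cma1, lower in HG (-1.35, -3.09, -3.51 and -3.08). Of these, H2-Ab1 was called in 19 and Pou2af1 in 22 of the 23 fits. Fcmr was at least 7.13-fold lower in HG than in eyelid mesenchyme (adjusted p = 1.34e-06).

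The eyelid mesenchyme differed in other cells too. The 7 skeletal muscle genes summed to 1.02 to 1.31 in LG mesenchyme and 2.55 to 6.63 in HG mesenchyme, against 56.6 to 114 in eyelid mesenchyme. The 12 epithelial markers summed to 8.19 to 17.5 and 7.78 to 31.1 in LG and HG mesenchyme, against 143 to 341 in eyelid mesenchyme. Their part in the differences was not tested.

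Between the epithelia, 1 gene was lower in LG than in HG (6.35% of all genes tested were called, 2.96% higher and 3.39% lower). For LG against eyelid 1 was higher (45.5%, 27.2% higher and 18.3% lower), and for HG against eyelid 3 were higher and 1 lower (44.6%, 26.6% higher and 18% lower). With embryonic arrays alone 10, 6 and 13 of the 30 genes were called, and 10.8%, 54.5% and 52.9% of all genes tested. Cd74 was higher in LG than in eyelid epithelium by 1.55 ± 0.38 (adjusted p = 0.00243). Lyz2 and Cx3cr1 were higher in HG than in eyelid epithelium by 2.25 ± 0.62 and 1.29 ± 0.49, and Cd4 was lower (-0.89 ± 0.27). Leaving out 1 array at a time, Lyz2 was called in 23 of 23 fits, Cx3cr1 in 18 and Cd4 in 21. Cx3cr1 was lost without HG epithelium array 2 or 3 or any 1 of the eyelid epithelium arrays, and Cd4 without HG epithelium array 3 or eyelid epithelium array 2. Fcmr was lower in LG than in HG epithelium (-2.14 ± 0.47), by -3.98, -1.41 and -1.02 within the 3 slides, and the call was lost without LG epithelium array 1 (-1.56, adjusted p = 0.0577). It was at least 3.45-fold higher in HG than in eyelid epithelium (adjusted p = 7.26e-05). With embryonic arrays alone 8 of the 15 macrophage genes were lower in LG than in HG epithelium, as were 5.57% of all genes tested, among them Lyz2 (-1.57), Cx3cr1 (-1.31) and C1qa (-1.2). The mesenchyme markers summed to 109 to 149 in LG epithelium, against 130 to 262 in HG epithelium, and their part in this was not tested.

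**Figure D3:**
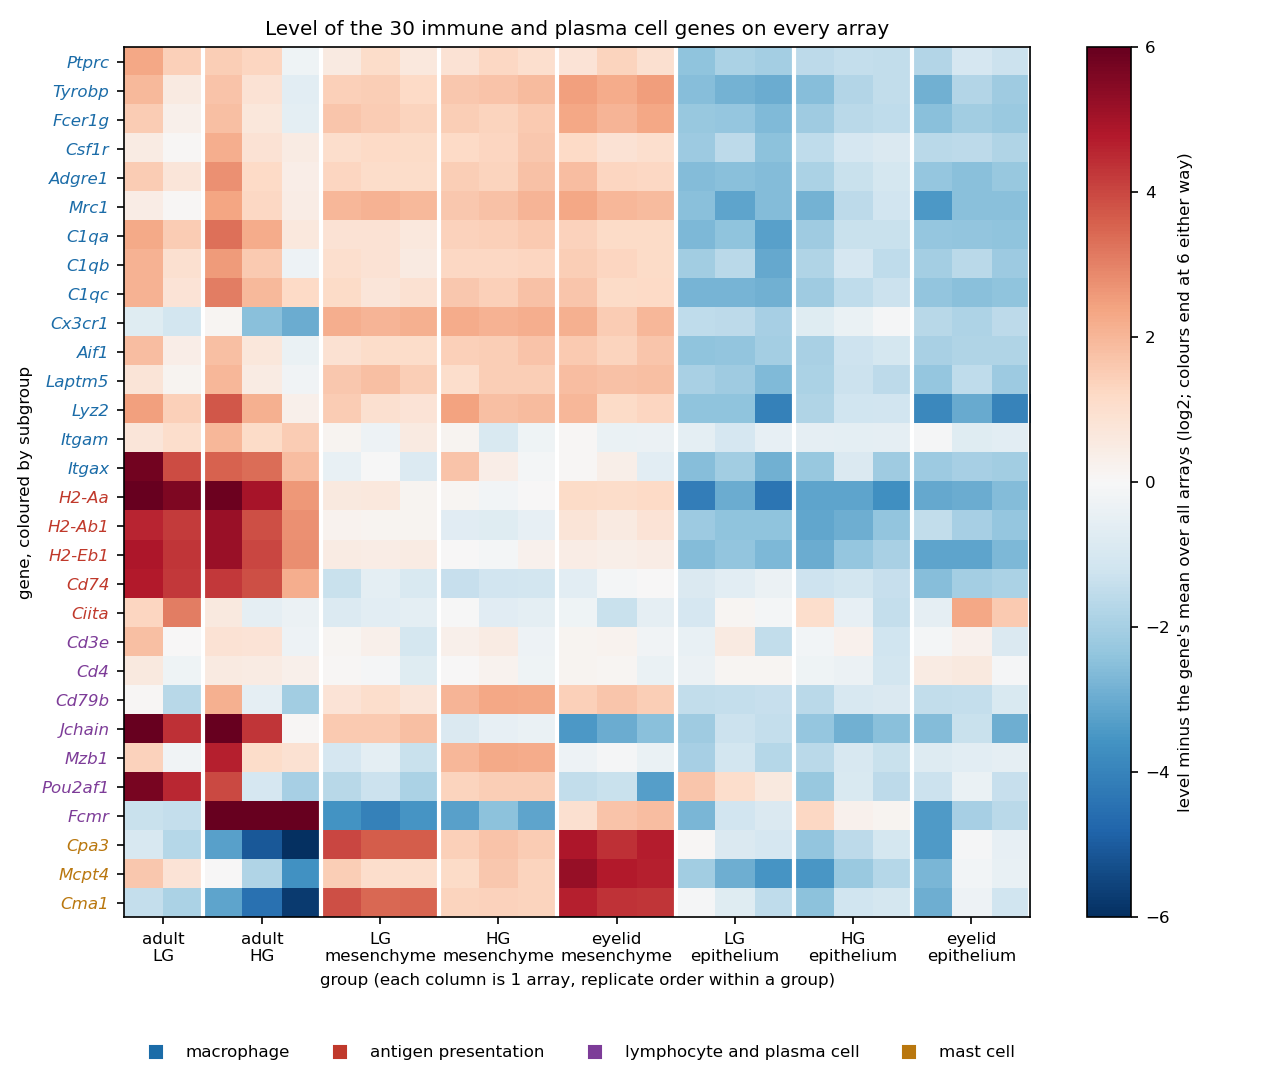
Level of each of the 30 genes on every array, as the difference from the gene's own mean (log2, red above and blue below the mean, the colours ending at 6 in either direction); columns are arrays by group and gene names are coloured by subgroup. Most macrophage genes are blue on the 9 epithelium arrays, and H2-Aa, H2-Ab1, H2-Eb1 and Cd74 are red on adult arrays.

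In the adult, 8 of the 30 genes were higher in LG than in HG and 2 were lower, while of all genes tested 55.6% were called, 22.4% higher and 33.2% lower. The higher ones were the 3 mast cell proteases, Pou2af1, Ciita, Cd74, Itgax and Ptprc, and the lower ones Fcmr and Csf1r. Without adult LG array 1, which carried the salivary gland markers, 8 genes were called, and without adult HG array 1, 15. Shares of all genes are not given for these fits, so their counts show only a dependence on the arrays. All 10 genes of the fit over all arrays had the same sign on both slides that held the 2 glands. Other cells differed in the same comparison. Of 10 endothelial genes 1 was higher and 8 were lower in adult LG, with sums of 38.3 and 23.3 in adult LG, against 65.3, 32.4 and 30.3 in adult HG. Of 12 mesenchyme markers 9 were lower, with sums of 165 and 147 in adult LG, against 628, 375 and 309 in adult HG. The erythroid genes, of which 1 of 8 was higher and 2 were lower, summed to 43.6 and 29.7 in adult LG, against 336, 258 and 36.2 in adult HG, and 4 of 7 skeletal muscle genes were lower. Their part in the immune results was not tested.

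The mast cell proteases did not overlap between the adult glands. Cpa3 had levels of 1.32 and 0.56 in adult LG, against -1.0, -2.82 and -5.84 in adult HG, a difference of 4.16 ± 0.99 (adjusted p = 0.00158). Mcpt4 had levels of 2.73 and 1.94 in adult LG, against 1.11, -0.70 and -2.5 in adult HG, a difference of 3.03 ± 0.82 (adjusted p = 0.0042). Cma1 had levels of -0.54 and -1.03 in adult LG, against -2.26, -3.58 and -4.87 in adult HG, a difference of 2.78 ± 0.67 (adjusted p = 0.00186). In adult HG, Cpa3 and Cma1 were each well above background on 2 of 3 arrays, so their differences rest partly on values not well above background. All 3 proteases were called in each of the 23 fits that left out 1 array.

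Pou2af1 was higher in adult LG, at 2.85 and 1.68, against 1.12, -3.88 and -4.84 in adult HG, where 2 of 3 arrays were well above background. The glands did not overlap, and the difference of 4.8 ± 1.11 (adjusted p = 0.00127) was called in all 23 fits. Fcmr was the reverse. Its levels were -4.72 and -4.83 in adult LG, where it was not well above background, against 5.89, 5.84 and 6.46 in adult HG, and it was at least 552-fold lower in adult LG (adjusted p = 7.34e-12). Jchain, Mzb1 and Cd79b did not separate the glands. Jchain had levels of 3.38 and 0.83 in adult LG, against 6.02, 0.74 and -3.45 in adult HG (1.0 ± 1.55, adjusted p = 0.606). Mzb1 had levels of -1.58 and -3.18 in adult LG, against 1.7, -1.86 and -2.03 in adult HG. Cd79b had levels of -1.02 and -2.75 in adult LG, against 1.05, -1.63 and -3.17 in adult HG. In adult LG, Mzb1 and Cd79b were each well above background on 1 array only. Adult HG array 1 was the highest of the 5 adult arrays for all 3 genes. Without it, Jchain was higher in adult LG by 3.46 (adjusted p = 0.00496). Ms4a1, not tested, was well above background on 1 array of the study, in adult HG, where its levels were -1.5, -6.3 and -5.89.

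Among the antigen presentation genes, Ciita had levels of -2.51 and -0.71 in adult LG, against -3.2, -4.33 and -4.17 in adult HG, where 1 of 3 arrays was well above background (2.29 ± 0.74, adjusted p = 0.0141). Cd74 had levels of 5.46 and 4.92 in adult LG, against 4.94, 4.54 and 2.85 in adult HG, a difference of 1.08 ± 0.42 (adjusted p = 0.037) with overlapping glands. Its adjusted p was 0.0516 with the replicate number as a block and 0.231 without adult LG array 1. H2-Aa, H2-Ab1 and H2-Eb1 were not called (1.44 ± 0.60, 0.45 ± 0.44 and 0.60 ± 0.44), but all 3 were higher in adult LG without adult HG array 1 (2.14, 1.08 and 1.2).

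Of the 15 macrophage genes tested, 3 were called between the adult glands, and each was lost without 1 array. Itgax had levels of 1.18 and -0.72 in adult LG, against -1.07, -1.28 and -2.77 in adult HG (1.94 ± 0.60, adjusted p = 0.0112), and without adult LG array 1 the difference was 0.99 (adjusted p = 0.258). Ptprc had levels of -0.25 and -1.16 in adult LG, against -1.12, -1.28 and -2.87 in adult HG (1.05 ± 0.39, adjusted p = 0.0309), with overlapping glands, and without adult LG array 1 it was 0.59 (adjusted p = 0.331). Csf1r had levels of 4.07 and 3.64 in adult LG, against 5.76, 4.44 and 4.05 in adult HG (-0.89 ± 0.36, adjusted p = 0.0412). Without adult HG array 1 the difference of Csf1r was -0.39 (adjusted p = 0.22), without adult LG array 1 its adjusted p was 0.0544 and with the slide as a block 0.0535, and its 2 dimmer probes gave -0.74 and 0.98, the second with the opposite sign. The median difference of the macrophage genes was -0.10, against -0.13 over all genes. Cx3cr1 was not called (0.90 ± 0.55), but without adult HG array 1 it was higher in adult LG by 1.85 (adjusted p = 4.79e-06).

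Set against embryonic mesenchyme of the same gland, the adult glands had higher class II genes. All 5 antigen presentation genes were higher in adult LG and 4 of 5 in adult HG, with median differences of 4.19 and 4.51. Over the whole set 12 of 30 genes were higher and 7 lower in adult LG than in LG mesenchyme (70.4% of all genes tested were called, 32.6% higher and 37.8% lower). In adult HG 8 were higher and 6 lower than in HG mesenchyme (68.7% called, 32.9% higher and 35.8% lower). Without adult HG array 1, 22 of the 30 were called in HG. The share of all genes in that fit is not given here, so the rise is not shown to be particular to the set.

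H2-Eb1 had levels of 5.8 and 5.26 in adult LG, against 1.42, 1.4 and 1.44 in LG mesenchyme, and of 6.13, 4.94 and 3.72 in adult HG, against 0.99, 0.86 and 1.21 in HG mesenchyme. It was higher by 4.11 ± 0.44 in LG and 3.91 ± 0.39 in HG. Cd74, which did not separate the embryonic compartments of the glands, had levels of 5.46 and 4.92 in adult LG, against -0.63, 0.09 and -0.24 in LG mesenchyme, and of 4.94, 4.54 and 2.85 in adult HG, against -0.70, -0.43 and -0.41 in HG mesenchyme. It was higher by 5.45 ± 0.42 in LG, or 43.6-fold, and by 4.63 ± 0.38 in HG, or 24.7-fold. H2-Aa was higher by 5.47 ± 0.60 in LG and 4.51 ± 0.54 in HG, and H2-Ab1 by 4.19 ± 0.44 and 4.55 ± 0.39. For these 4 genes every adult array was above every mesenchyme array of its gland, and each was called in all 23 fits that left out 1 array. Ciita was higher in adult LG (2.88 ± 0.74, adjusted p = 0.00212) and was not called in HG (0.34 ± 0.66, adjusted p = 0.667). It passed the filter only through eyelid epithelium and adult LG, so the call in LG is not independent of the filter.

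In the fit over all arrays the macrophage genes showed no common direction. Of 15, 4 were higher and 4 lower in adult LG (median 0.11). In adult HG 2 were higher and 2 lower (median -0.18). Several HG differences changed with the slide, and adult HG array 1 lay on slide 1. Within slides 1, 2 and 3 they were 0.32, -0.64 and -2.17 for Fcer1g, and 0.93, -1.01 and -1.72 for Laptm5. For C1qa they were 1.9, 0.79 and -0.96, and for Itgam 1.83, 2.05 and 1.78. Tyrobp had levels of 4.33 and 2.93 in adult LG, against 3.83, 3.9 and 3.59 in LG mesenchyme, and of 4.11, 3.29 and 1.78 in adult HG, against 4.03, 4.1 and 4.29 in HG mesenchyme, and its groups overlapped in both glands. Its difference in HG was called (-1.08 ± 0.45, adjusted p = 0.0429), but within the 3 slides it was 0.08, -0.80 and -2.52, its adjusted p was 0.0519 with the replicate number as a block, and it was called in 17 of the 23 fits.

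Cx3cr1 was lower in both adult glands. Its levels were 0.03 and -0.33 in adult LG, against 2.93, 2.8 and 2.87 in LG mesenchyme, and 0.86, -1.76 and -2.23 in adult HG, against 2.99, 2.85 and 2.93 in HG mesenchyme. The groups did not overlap in either gland, and the differences were -3.01 ± 0.55 and -3.97 ± 0.49. Its 2 other probes gave -2.43 and -3.08 in LG and -4.10 and -3.79 in HG. Mrc1 was lower in adult LG (-1.75 ± 0.47) and was not called in HG (-0.45 ± 0.42). Itgax was higher by 5.29 ± 0.60 in LG and 2.24 ± 0.54 in HG. Of the mesenchyme arrays, 1 of 3 in LG and 2 of 3 in HG showed Itgax well above background. Itgax passed the filter only through the adult groups, so these calls are not independent of the filter. Itgam was higher by 0.78 ± 0.31 in LG and 1.89 ± 0.28 in HG. C1qa in adult LG (1.12 ± 0.48, adjusted p = 0.0451) had an adjusted p of 0.0711 with the replicate number as a block and was called in 7 of the 23 fits that left out 1 array, Itgam in LG in 20.

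**Figure D4:**
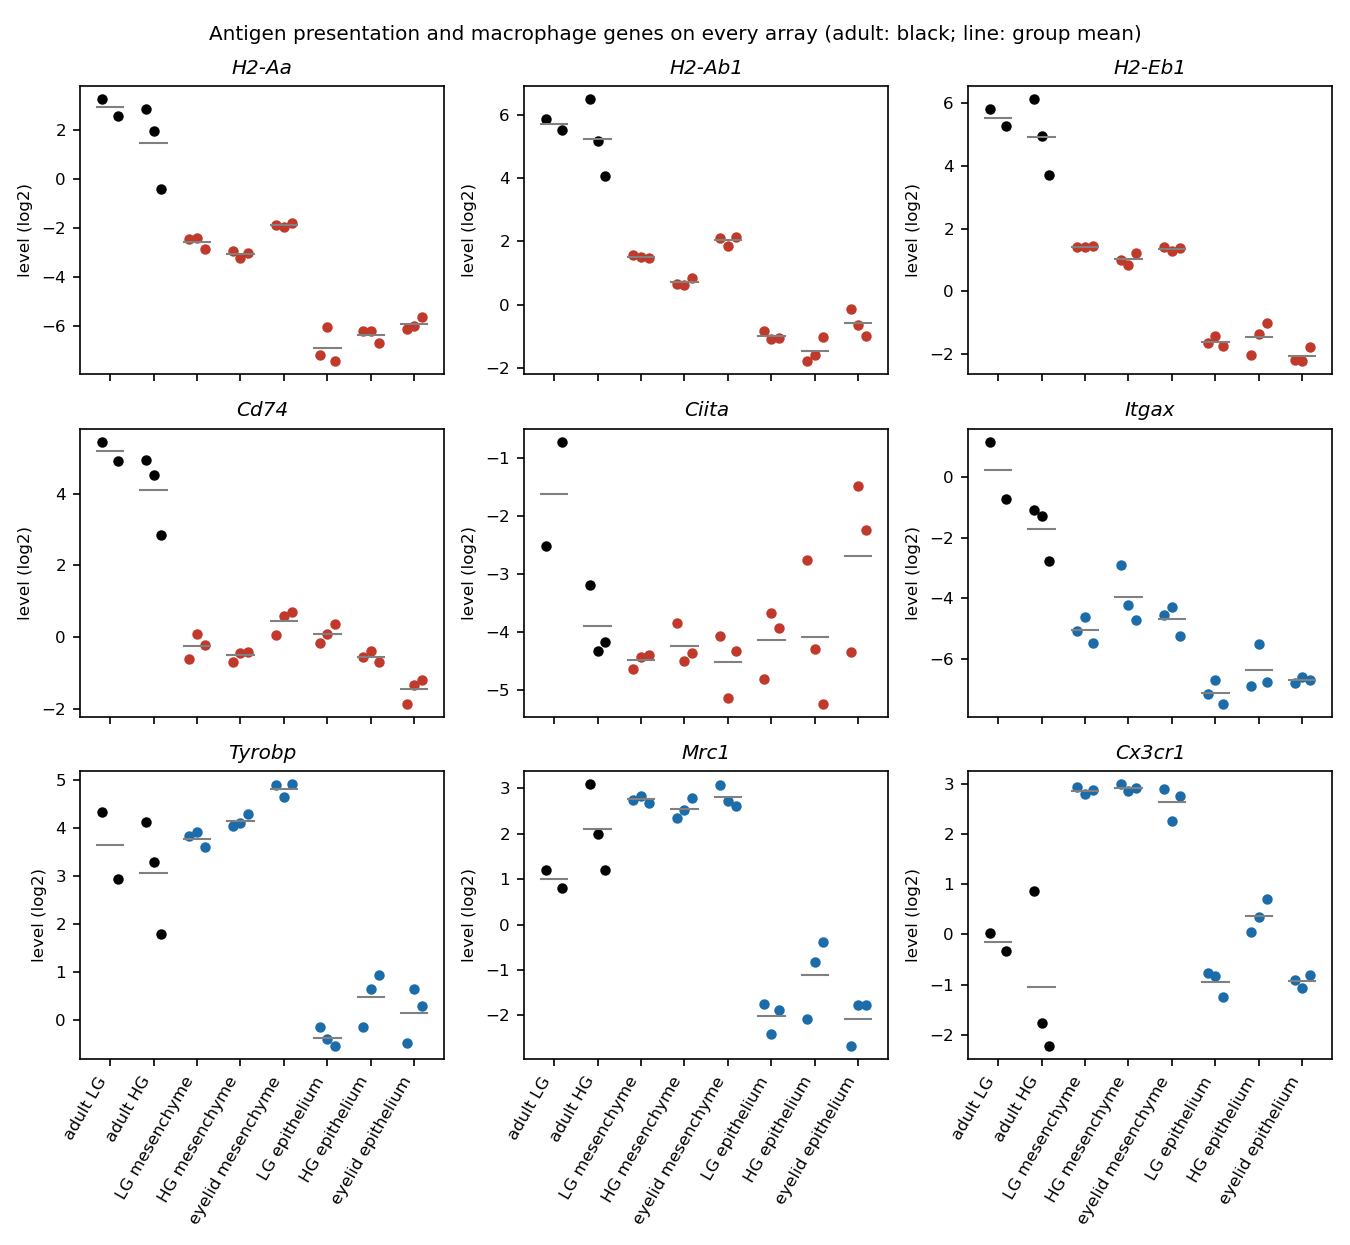
Level (log2 signal minus the 75th percentile, vertical axes) of 9 genes on every array of the 8 groups; points are arrays and lines are group means. H2-Aa, H2-Ab1, H2-Eb1, Cd74 and Itgax are higher on every adult array than on every mesenchyme array of the same gland, Cx3cr1 is lower, and Tyrobp overlaps.

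The mast cell genes Cpa3 and Cma1 were lower in the adult. Cpa3 differed from mesenchyme by -5.08 ± 0.99 in LG and -7.04 ± 0.88 in HG, and Cma1 by -5.27 ± 0.67 and -5.81 ± 0.60, with no overlap. In adult HG each was well above background on 2 of the 3 arrays. Mcpt4 was different in LG: its levels of 2.73 and 1.94 in adult LG overlapped those of 2.58, 2.14 and 2.17 in LG mesenchyme (0.04 ± 0.82, adjusted p = 0.967), while in HG it was lower (-3.18 ± 0.73, adjusted p = 0.0008).

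Jchain was higher in the adult than in mesenchyme, by 4.0 ± 1.55 in LG (adjusted p = 0.0283) and 5.21 ± 1.38 in HG (adjusted p = 0.00269). In HG its difference within the 3 slides was 10.4, 4.75 and 0.47, and in LG it was 2.72 without adult LG array 1 (adjusted p = 0.238). Pou2af1 was higher in adult LG than in LG mesenchyme by 6.74 ± 1.11 (adjusted p = 2.8e-05) and was not called in HG (-1.1 ± 0.99). Fcmr was at least 1748-fold higher in adult HG than in HG mesenchyme (adjusted p = 9.3e-14), and in LG it was not well above background at either age, so its called difference there has no fold. Mzb1 was not called in HG (0.05 ± 0.65), and without adult HG array 1 it was lower in adult HG (-1.16, adjusted p = 0.00766). Cd79b was lower in adult LG than in LG mesenchyme (-1.67 ± 0.73, adjusted p = 0.0497), and was well above background on 1 adult LG array only. This was called in 3 of the 23 fits that left out 1 array and had an adjusted p of 0.0695 with the slide as a block. In adult HG it was lower than in HG mesenchyme (-2.37 ± 0.66), and the difference within the 3 slides was 0.09, -2.86 and -4.35.

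**Figure D5:**
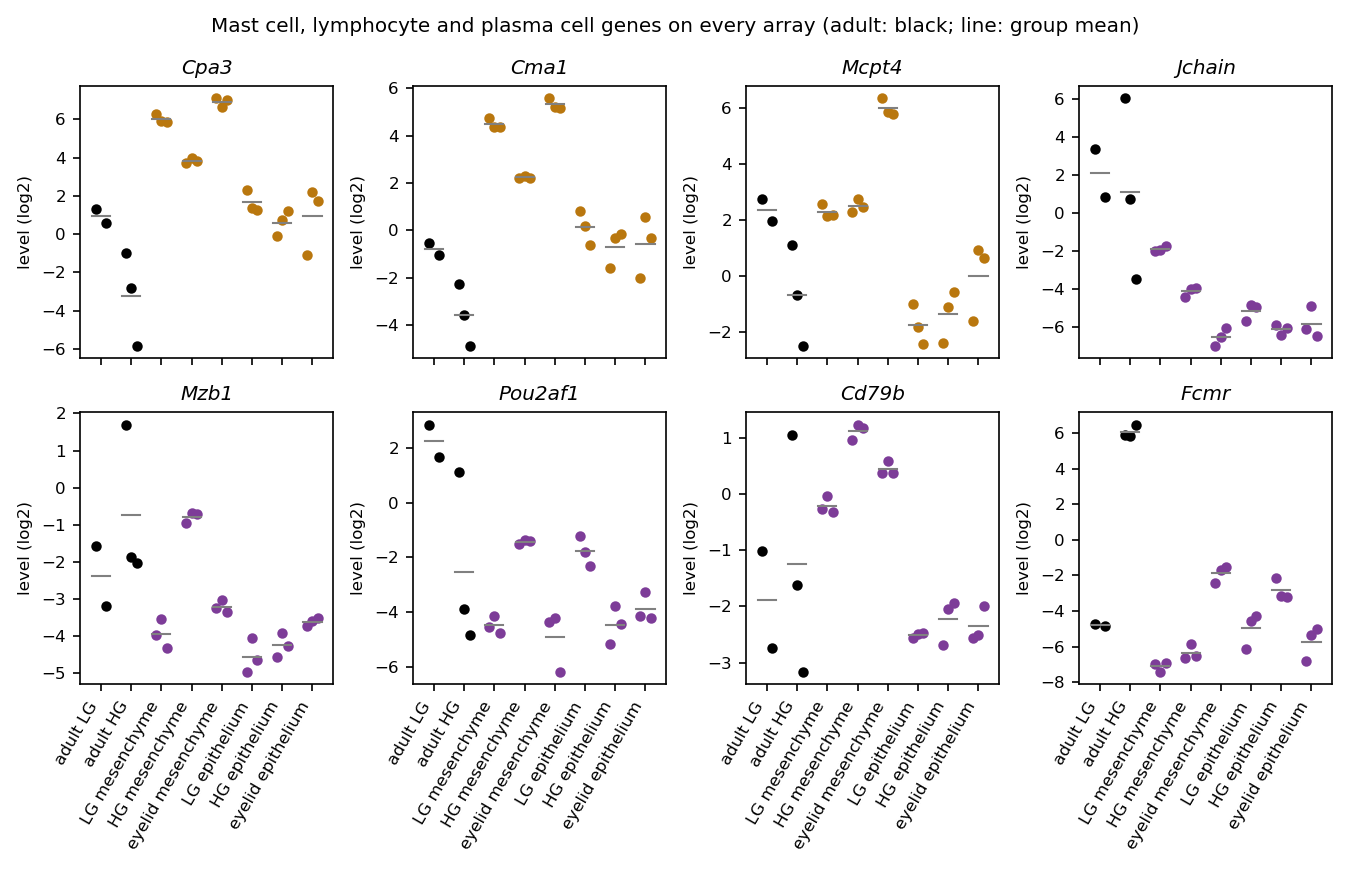
Level (log2 signal minus the 75th percentile, vertical axes) of 3 mast cell genes and 5 lymphocyte and plasma cell genes on every array of the 8 groups; points are arrays and lines are group means. Cpa3 and Cma1 are lower on every adult array than on the mesenchyme arrays of the same gland, Jchain spans -3.45 to 6.02 in adult HG, and Fcmr is at 5.84 or above on the 3 adult HG arrays and at -1.52 or below on all other arrays.

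Other cells changed in the same comparisons. The 12 mesenchyme markers summed to 147 to 165 in adult LG, against 1579 to 2106 in LG mesenchyme, and to 309 to 628 in adult HG, against 1520 to 2057 in HG mesenchyme. The 12 epithelial markers summed to 544 to 780 in adult LG, against 8.19 to 17.5 in LG mesenchyme, and to 337 to 420 in adult HG, against 7.78 to 31.1 in HG mesenchyme. Of 6 adipocyte genes tested, 6 were higher in adult LG and 5 in adult HG. The part of these cells in the immune results was not tested.

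Against embryonic epithelium, 24 of the 30 genes were higher in adult LG and 0 lower (69.8% of all genes tested were called, 31.2% higher and 38.7% lower), and 22 were higher and 3 lower in adult HG (70% called, 34.4% higher and 35.6% lower). H2-Aa was at least 260-fold higher in adult LG than in LG epithelium (adjusted p = 9e-11) and at least 73.0-fold higher in adult HG than in HG epithelium (adjusted p = 3.08e-10). Mcpt4 was higher in adult LG than in LG epithelium by 4.1 ± 0.82. The 3 genes lower in adult HG were Cpa3, Cma1 and Cx3cr1 (-3.83 ± 0.88, -2.88 ± 0.60 and -1.4 ± 0.49), and within the 3 slides Cx3cr1 differed by 0.81, -2.1 and -2.93, its call being kept in 20 of the 23 fits.

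A difference of differences asked whether the change between embryonic mesenchyme and adult gland differed between LG and HG. It called 7 of the 30 genes, 5 positive and 2 negative, and 46% of all genes tested (19.1% positive, 26.9% negative). The change was more positive in LG for Pou2af1 (7.84 ± 1.49), Mcpt4 (3.22 ± 1.1), Itgax (3.05 ± 0.81), Ciita (2.54 ± 1.0) and Ptprc (1.35 ± 0.53), and more negative in LG for Itgam (-1.11 ± 0.42) and Fcmr. No size is given for Fcmr, which was not well above background in adult LG, LG mesenchyme or HG mesenchyme. At the other probes of Itgam the change was 0.996 in LG and 0.999 in HG, and 0.89 in LG and 0.57 in HG. The Itgam result therefore depends on the probe. Pou2af1 and Fcmr were called in all 23 fits that left out 1 array, Itgax in 22, Mcpt4 in 21, Itgam in 17, Ciita in 11 and Ptprc in 8. With the replicate number as a block the adjusted p was 0.0529 for Ptprc and 0.0605 for Ciita, and with the slide as a block it was 0.0527 for Ciita. Without adult LG array 1, Pou2af1, Fcmr and Ciita were called, and without adult HG array 1, 11 genes were. With LG mesenchyme array 1 or 3 or HG mesenchyme array 2 or 3 left out, 4 genes were called. Shares of all genes are not given for the fits that left out an array.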

How the data were processed

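Total RNA was hybridised to 23 one-colour Agilent arrays in 8 groups. The deposited scanner files hold processed spot intensity values on a linear scale from Agilent Feature Extraction, version 11.0.1.1 on slide 1 and 11.5.1.1 on slides 2 and 3, per the file headers; the submitters' processing notes name 11.5.1.1 only. The deposited series values, used as an alternative, had a median log2 ratio of 0 to the scanner values on each array and array medians of 11.1 to 65.7; they were not log-transformed or centred. Spots were matched to genes through RefSeq accessions: 27509 of 55681 probes matched, to 20887 symbols. The intensities were converted to log2, and each array's 75th percentile was subtracted. A gene was kept if its probe was well above background on all arrays of 1 or more groups. One limma fit (limma 3.58.1, R 4.3.3) covered all arrays with 8 group means and no block, and p-values were adjusted by Benjamini-Hochberg over 16324 genes. The fitting script was checked on simulated data. The planned normexp setting used spot medians, in place of spot means, and the planned immunoglobulin probes, which needed gene names, are not analysed here. Same-numbered embryonic arrays deviated together (27 correlations of 0.17 to 0.58), and the number is also the slide; the 12 pairs with an adult group ran from -0.34 to 0.44. The genes named outside the set were drawn from the 4 with the largest called difference of each list in a comparison. The members and all lists were chosen with earlier results of these data known. Alternatives tried were normexp, median centring, quantile normalisation, other filters and probe rules, the deposited series values, slide and replicate blocks, and fits on fewer arrays.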

Additional observations from a re-analysis of the deposited data

Results flagged for a closer look

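A difference that itself differed between tissues by a test was found for the following genes. The change between embryonic mesenchyme and adult gland differed between LG and HG for Pou2af1 (7.84), Mcpt4 (3.22), Itgax (3.05), Ciita (2.54), Ptprc (1.35) and Itgam (-1.11), as log2 differences of differences, LG minus HG. For Fcmr the fit gave -10.07, which is no measured size, since Fcmr was not well above background in 3 of the 4 groups. The Itgam value depends on the probe: at its other probes the change was 0.996 in LG and 0.999 in HG, and 0.89 and 0.57. The difference between embryonic mesenchyme and epithelium depended on the tissue, by an F test over LG, HG and eyelid, for Fcmr (adjusted p = 1.82e-07), Cd74 (adjusted p = 0.00426), Pou2af1 (adjusted p = 0.00778), Mzb1 (adjusted p = 0.0185) and Cma1 (adjusted p = 0.026).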

How the results depend on the processing

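The counts of genes called in mesenchyme against epithelium and in the adult against either embryonic compartment stayed within 1.5 times under every alternative setting other than leaving out 1 array. The counts between tissues of 1 compartment and between the adult glands did not, and the cause was not tested. With background correction by normexp, 5 of the 30 genes were called for LG against HG mesenchyme and 3 for LG against eyelid epithelium. With arrays centred on the median, 2 were called for LG against eyelid epithelium and 4 for the difference of differences. With the slide as a block, 2 were called for LG against eyelid epithelium. Without slide 1 the counts were 4 for LG against HG epithelium, 3 for LG against eyelid epithelium, 8 for HG against eyelid epithelium and 8 for the F test. With only the arrays compared in the fit they were 12, 13 and 13 between the mesenchymes (LG against HG, LG against eyelid, HG against eyelid), 4, 5 and 10 between the epithelia, 5 between the adult glands and 13 for the F test. With embryonic arrays only, a setting chosen after seeing the data, they were 9, 9 and 12, then 10, 6 and 13, and 13 for the F test. Leaving out 1 array at a time, the counts ran from 1 to 6, 3 to 5 and 5 to 9 between the mesenchymes, 0 to 7, 1 to 5 and 2 to 10 between the epithelia, 8 to 15 between the adult glands, 13 to 20 for adult LG and 13 to 22 for adult HG against mesenchyme, 3 to 11 for the difference of differences and 4 to 7 for the F test. Arrays that moved a count by over 1.5 times, beside those named in the report, were LG mesenchyme 1 (1 for LG against HG mesenchyme), adult HG 1 (6) and adult HG 3 (5), and adult HG 3 for LG against eyelid mesenchyme (5). Between LG and HG epithelium they were LG epithelium 1 (0), HG epithelium 1 (3), adult LG 1 and 2 (2 each), adult HG 1 (7) and adult HG 3 (4). Between LG and eyelid epithelium they were LG epithelium 1 and eyelid epithelium 1 (3 each), adult HG 1 (4) and adult HG 3 (5), and between HG and eyelid epithelium HG epithelium 1 (7), HG epithelium 3 and eyelid epithelium 2 (2 each), adult HG 1 (9) and adult HG 3 (10). The 0, from limma, came where Fcmr had a difference of -1.56 (adjusted p = 0.0577) and 10 of the 30 genes had an unadjusted p under 0.05. Directions turned for Cd80 between the adult glands (0.29 with the mean of all probes), Mmp8 in adult LG against LG mesenchyme (0.23 with normexp) and Mzb1 in adult HG against HG mesenchyme (-1.25 without slide 1, and -1.16 to 0.70 leaving out 1 array). Over all genes, centring on the median called 1230 genes for LG against HG mesenchyme, against 2336 with the 75th percentile, and with only the adult arrays in the fit 4369 genes were called between the adult glands, against 9081. Median centring moved the median of all genes from -0.13 to -0.38 between the adult glands and from -0.07 to -0.44 in adult LG against LG mesenchyme. With the replicate number as a block, the count of genes called moved by less than 1.5 times in every comparison. The block lost Cd74 between the adult glands (adjusted p = 0.0516), C1qa in adult LG against mesenchyme (0.0711), Tyrobp in adult HG against mesenchyme (0.0519), and Ptprc (0.0529) and Ciita (0.0605) in the difference of differences. For most of these settings the share of all genes called is not given, so the counts describe only how the set depends on the setting. The number of arrays, 2 or 3 a group, limits the precision of every value.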

Other observations

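Other immune genes, from 9 further lists, were read in the same fit, and differences are log2 values. These lists were chosen with earlier results of these data known, so they are no independent support for the results above. In the mean of the 3 embryonic tissues, where 32% of all genes tested were higher and 38.7% lower, 25 of 26 other macrophage genes were higher in mesenchyme than in epithelium and 1 was lower, with a median of 3.25, among them the hyaluronan receptor Lyve1 (4.97), the scavenger receptor Msr1 (4.6), Pf4 (4.51) and F13a1 (4.46). Of 16 other mast cell and basophil genes 13 were higher and 0 lower, including Hdc, the enzyme that makes histamine (4.33), and the transcription factor Gata2 (4.43). Of 14 neutrophil and monocyte genes 9 were higher and 1 lower. Of 18 other T and natural killer cell genes 10 were higher and 4 lower, and the lower ones included the T cell kinase gene Lck (-2.35).

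Between the adult glands, where 22.4% of all genes tested were higher in LG and 33.2% lower, 8 of 16 other mast cell genes were higher in LG and 2 lower, including the mast cell receptors Mrgprb2, at least 3.05-fold higher in LG (adjusted p = 1.15e-05), and Mrgprb1, at least 5.31-fold higher (adjusted p = 2.18e-05), both not well above background in HG. Of 26 other macrophage genes 3 were higher and 9 lower, the lower ones at about the share of all genes, and they included P2ry12, at least 8.94-fold lower in LG (adjusted p = 8.01e-08), and Lyve1 (-3.44). Of 15 genes of plasma cell niche and immunoglobulin A transport 5 were higher and 5 lower, also near those shares, and Ccl28, a chemokine that draws plasma cells to mucosal glands, was higher in LG (5.73). Lat, an adaptor of T cell receptor signalling, was lower in adult LG (-9.52) and higher in adult HG than in HG mesenchyme (8.06), while Cd3e was called in neither comparison. Against mesenchyme, 10 of 14 interferon gamma response genes were higher in adult LG and 0 lower (32.6% and 37.8% of all genes), and 7 of 14 were higher in adult HG and 0 lower (32.9% and 35.8%), with the class I gene H2-K1 at 3.92 and 5.28. Hdc was lower in adult LG (-8.73) and in adult HG (-7.81).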
